A study of Caenorhabditis elegans with 2 samples.

Results

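Small nuclear RNA (snRNA) genes of the spliceosome of Caenorhabditis elegans were examined for regions bound by the protein SNPC-1.3. Members were all nuclear genes with the biotype snRNA in the Ensembl annotation of assembly WBcel235 (ce11) whose symbol did not begin with sls- or smy-. Of 129 such genes, 30 spliced leader (SL) RNA genes and 10 smY genes were left out (a further 2 smY genes have the biotype snoRNA), which gave 89 loci among 46890 annotated nuclear genes. The assay was chromatin immunoprecipitation and sequencing (ChIP-seq) of sonicated chromatin with an antibody against GFP. The animals were young adult hermaphrodites of strain YL485, a transgenic line that stably expresses SNPC-1.3 (gene F08F3.9) with a C-terminal GFP-FLAG tag. There was 1 group, of 2 biological replicates, so every comparison is between kinds of gene and not between conditions. The lists came from whole animals, so a region cannot be assigned to the germline or to the soma, binding in few cells and weak binding in many cannot be told apart, and an animal without the tag is not analysed here.

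The spliceosome removes introns and is built from small nuclear ribonucleoproteins, each of which holds an snRNA and a ring of Sm or LSm proteins. U1 RNA pairs with the 5′ splice site and U2 RNA with the branch point. U4 RNA carries U6 RNA into the complex in a paired, inactive form, U5 RNA holds the exon ends, and U6 RNA forms the catalytic core. The genes of U1, U2, U4 and U5 RNA are transcribed by RNA polymerase II and those of U6 RNA by RNA polymerase III. Both use SNAPc, a complex that binds the proximal sequence element upstream of the start, and at U6 genes a TATA box lies downstream of that element. SNPC-1.3 is a paralogue of the SNAPc subunit SNPC-1 and is known from piRNA transcription in the male germline.

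Kind was read from a short word on the RNA strand, written here as DNA. The word was ACTTACCTG for U1, which pairs with the 5′ splice site, and GTAGTATCT for U2, which pairs with the branch point. It was AGCTTTGC near the 5′ end of U4, GCCTTTTAC of the exon-binding loop for U5 and ACAGAGAAG of the conserved U6 box that contacts the 5′ splice site. By these words 12 loci were U1, 19 were U2, 5 were U4, 11 were U5 and 22 were U6 genes, and 20 loci were unassigned. The 20 unassigned loci hold none of the 5 words. For 16 of them shared 12-base words gave no kind either, at a cut of 50%. Among these 16, T14B4.10 and F35C11.9 share some 12-base words with loci of an assigned kind, below the cut. The rest share none, and for them the label spliceosomal rests on biotype alone. Of the 4 loci above the cut, mir-1831 and T27E4.22 share all their 12-base words with U1 loci. F36A4.23 shares 85.7% with U6 loci and C53D6.16 shares 61.3% with U5 loci. Lengths were 163 to 170 bases for U1, 149 to 187 for U2, 142 to 144 for U4, 121 to 126 for U5 and 93 to 108 for U6. One RNA each of U1, U2 and U4 is shown to let these kinds be told apart, with the word in capitals. They come from loci with some of the highest signals of their kind and were read from the RefSeq sequence of WBcel235 (ce11).
sup-6 (U1, chrII:12944803-12944967, minus strand): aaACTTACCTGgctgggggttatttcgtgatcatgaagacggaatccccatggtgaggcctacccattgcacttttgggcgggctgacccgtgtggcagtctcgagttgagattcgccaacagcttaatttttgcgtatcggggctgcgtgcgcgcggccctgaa
Y57G11C.35 (U2, chrIV:14764848-14765034, minus strand): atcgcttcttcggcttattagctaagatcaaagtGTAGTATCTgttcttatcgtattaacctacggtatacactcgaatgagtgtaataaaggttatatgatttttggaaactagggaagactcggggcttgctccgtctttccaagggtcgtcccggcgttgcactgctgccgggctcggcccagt
C52E4.8 (U4, chrV:11980118-11980261, plus strand): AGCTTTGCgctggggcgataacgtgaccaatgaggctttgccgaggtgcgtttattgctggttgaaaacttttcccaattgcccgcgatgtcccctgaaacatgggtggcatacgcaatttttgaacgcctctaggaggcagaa

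The bases from 90 before to 20 after the annotated 5′ end are shown for 10 loci that had a bound region, because this stretch carries the elements that differ between the kinds. Capitals mark the best match to a word pair, GCGGAACCC and TGTCGG with 6 bases between, and in U6 genes also a TATA word. The pair was derived from the U1, U4 and U5 loci themselves, so its share among these is in part built in. The TATA words were TATATA and TATAAA.
sup-6 (U1, chrII:12944948-12945057, minus strand): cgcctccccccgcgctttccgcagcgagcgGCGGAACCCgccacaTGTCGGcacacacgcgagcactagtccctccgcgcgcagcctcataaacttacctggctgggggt
sup-39 (U1, chrII:6968539-6968648, minus strand): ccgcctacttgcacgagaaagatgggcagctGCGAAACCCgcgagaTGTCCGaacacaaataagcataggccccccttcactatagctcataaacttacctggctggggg
Y57G11C.35 (U2, chrIV:14765015-14765124, minus strand): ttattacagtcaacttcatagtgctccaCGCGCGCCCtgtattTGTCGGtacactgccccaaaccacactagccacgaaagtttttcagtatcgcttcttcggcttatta
F08G2.9 (U2, chrII:13836102-13836211, minus strand): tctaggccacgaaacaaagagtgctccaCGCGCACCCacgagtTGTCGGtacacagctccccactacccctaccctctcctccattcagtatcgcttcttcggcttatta
C52E4.8 (U4, chrV:11980028-11980137, plus strand): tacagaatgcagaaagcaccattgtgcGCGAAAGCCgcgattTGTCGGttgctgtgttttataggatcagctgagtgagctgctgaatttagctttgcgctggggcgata
K03B8.10 (U4, chrV:11391195-11391304, minus strand): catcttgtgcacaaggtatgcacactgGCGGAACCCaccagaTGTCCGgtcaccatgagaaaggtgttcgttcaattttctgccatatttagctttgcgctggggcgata
F38E11.10 (U5, chrIV:9444552-9444661, plus strand): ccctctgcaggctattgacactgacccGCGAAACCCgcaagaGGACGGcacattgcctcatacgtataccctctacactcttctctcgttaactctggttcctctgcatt
F42C5.12 (U5, chrIV:7316642-7316751, plus strand): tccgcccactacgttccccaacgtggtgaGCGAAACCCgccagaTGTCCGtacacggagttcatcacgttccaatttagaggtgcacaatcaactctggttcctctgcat
W05B2.8 (U6, chrIII:10989589-10989698, plus strand): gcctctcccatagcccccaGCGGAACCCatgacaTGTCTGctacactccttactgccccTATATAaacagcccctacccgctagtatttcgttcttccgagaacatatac
F54D8.7 (U6, chrIII:5080879-5080988, minus strand): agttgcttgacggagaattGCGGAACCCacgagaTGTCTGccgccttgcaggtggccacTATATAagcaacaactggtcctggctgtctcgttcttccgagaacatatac

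In every printed pair from U1, U4 and U5 loci the first word began 59 to 63 bases before the 5′ end, and in the U6 loci it began 71 bases before it. The TATA word began 31 bases before the 5′ end in both printed U6 loci. The U2 loci had a form of their own, in which the first word read CGCGCGCCC or CGCGCACCC and the second word TGTCGG was exact.

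The best region of a locus is the one of highest signal with its summit inside the gene or at most 250 bp away. The deposited lists held 30000 candidate regions per replicate, 30000 regions from the pooled replicates, and 1676 regions kept by the authors on their irreproducible discovery rate (IDR), which compares the replicates. The 1676 regions are called IDR peaks. A rank is the place of a region by signal within its own list, 1 being the highest. Signals stand in brackets after ranks, and where 2 ranks follow the pooled one they are those of replicate 1 and then of replicate 2. The 1676 IDR peaks were the 1676 pooled regions of highest signal, so that at all 28 loci with a peak the IDR and pooled ranks are the same. Signal is the authors' own value per region, and its scale differs between lists (median 57.8 among IDR peaks, 13.5 in the pooled list, 6.33 in replicate 1 and 10.4 in replicate 2). Read depth is unknown, since the lists carry no read counts.

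Of the 89 loci, 28 had an IDR peak, or 31.5% (22.0 to 42.2%, exact Clopper-Pearson 95% limits), against 5.17% of all annotated nuclear genes. U5 and U1 loci had the highest shares, with 9 of 11 U5 loci (81.8%, 48.2 to 97.7%) and 8 of 12 U1 loci (66.7%, 34.9 to 90.1%). U4 followed with 2 of 5 loci (40%, 5.27 to 85.3%) and U2 with 4 of 19 (21.1%, 6.05 to 45.6%). U6 had 3 of 22 (13.6%, 2.91 to 34.9%) and the unassigned loci 2 of 20 (10%, 1.23 to 31.7%). The intervals of U5 and U6 do not overlap, while those of U1 and U6 meet at their ends and the U4 interval overlaps that of every other kind. Among loci with at least 80% of their 31-base words found once in the genome, 7 of 8 U5 loci (87.5%, 47.3 to 99.7%) and 3 of 10 U6 loci (30%, 6.67 to 65.2%) had a peak, and there the intervals overlap. Intervals cover counting error only and treat loci as independent, although several share a sequence. The 28 loci held 27 distinct peaks, because mir-1831, a 22-base entry inside the U1 gene sup-39, shares the peak of that gene.

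**Figure D1:**
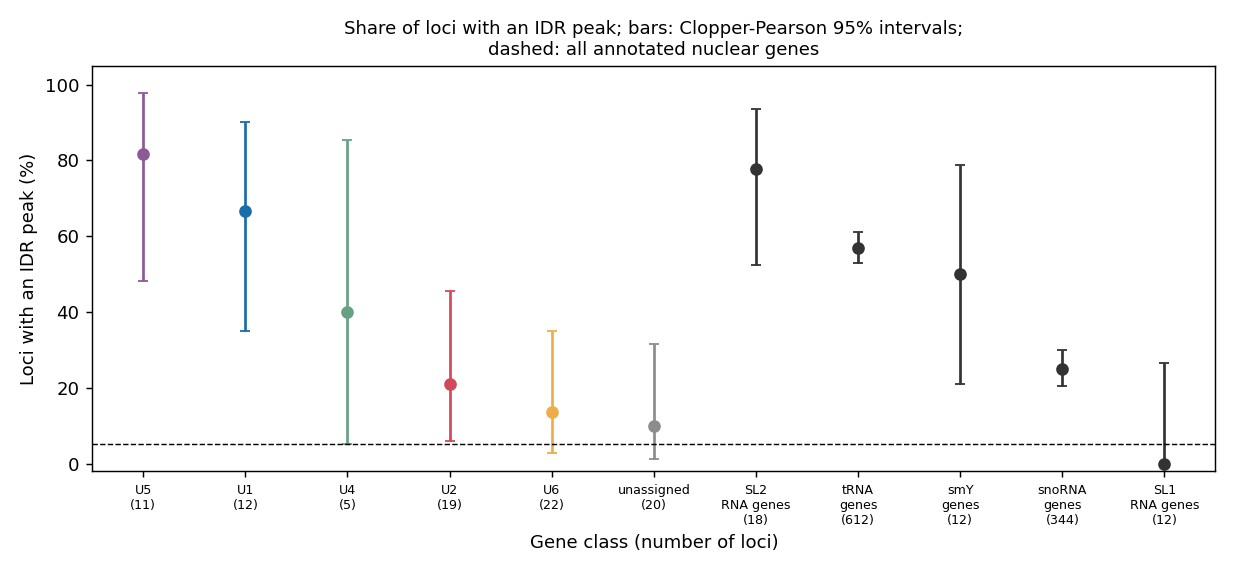
Percentage of loci with an IDR peak (y axis) for each snRNA kind and for 5 other short RNA classes (x axis, number of loci in brackets). Points are shares, bars are Clopper-Pearson 95% intervals and the dashed line is the 5.17% of all annotated nuclear genes; U5 stands at 81.8% and U6 at 13.6%.

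In each replicate alone U5 had the highest share and U6 the lowest of the 5 kinds. Among the 1676 regions of highest signal in each replicate, the share of loci with a region was 86.4% ± 6.43 (SD, n = 2) for U5, 58.3% ± 11.8 for U1, 40% ± 28.3 for U4, 23.7% ± 11.2 for U2 and 15.9% ± 3.21 for U6. Over all kinds these regions covered 31 loci in replicate 1 (34.8%, against 5.10% of all nuclear genes) and 25 loci in replicate 2 (28.1%, against 5.09%). They covered 23 loci in both replicates and 10 in only 1 of them. The spread between replicates is widest for U4, of which 3 of 5 loci were covered in replicate 1 and 1 of 5 in replicate 2.

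In the pooled list 51 of 89 loci (57.3%) had a candidate region, against 36.9% of all nuclear genes. These were 11 of 12 U1, 12 of 19 U2, 3 of 5 U4, 10 of 11 U5, 9 of 22 U6 and 6 of 20 unassigned loci. No list held a region at 27 loci, which were 9 U6, 5 U2, 1 U4 and 12 unassigned loci. Every U1 and every U5 locus had a region in at least 1 list. The median IDR rank of the loci with a peak was 432 for U5, 488 for U6, 632.5 for U1 and 892.5 for U2, so the few U6 loci with a peak ranked among the U5 and U1 loci.

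**Figure D2:**
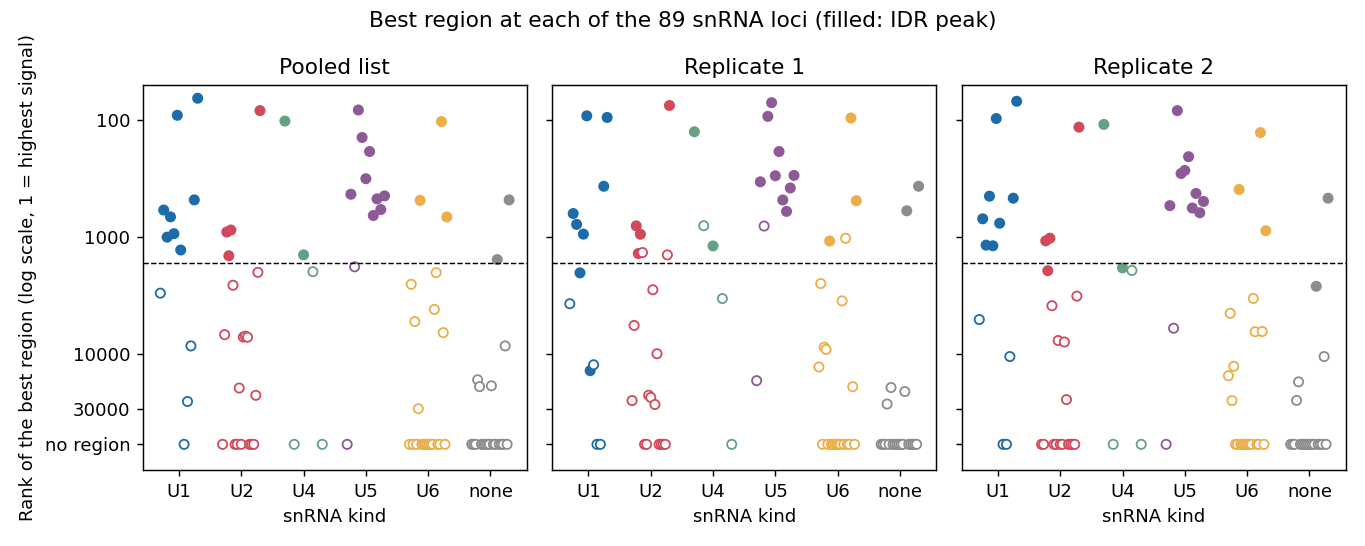
Rank of the best region at each of the 89 loci (y axis, log scale, 1 is the highest signal) by snRNA kind (x axis, "none" is unassigned) in the pooled list and in each replicate. Filled points have an IDR peak, the dashed line marks rank 1676 and loci without a region stand on the lowest row; most U5 points lie above the line in all 3 panels, and most U6 points lie on the lowest row.

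The U1 genes code for the RNA that recognises 5′ splice sites. The U1 locus of highest signal was sup-6, in an intron of F58G1.7, which ranked 65 in the pooled list with a signal of 158, 95 in replicate 1 (48.7) and 69 in replicate 2 (106). H27M09.6 ranked 91 (135), with ranks of 92 (49.1) and 97 (90) in replicates 1 and 2. The genes sup-6 and sup-39 were first known from suppressor mutations that change the choice of 5′ splice site. At sup-39, in an intron of C15F1.5, the pooled rank was 483 (74.6), with ranks of 369 (29.6) and 467 (52.1) in the replicates. F08H9.10 ranked 590 (68.2), with 632 (24.0) and 701 (44.1). Both replicates held all 4 of these loci within their top 1676 regions.

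The other 4 U1 loci with a peak lay within V 14028471 to 14468733, where F08H9.10 lies too. F40G12.13 had pooled rank 675 (64.1) and replicate ranks of 2037 (14.2) and 449 (52.9), so it was outside the top 1676 of replicate 1. F40G12.14 had pooled rank 941 (54.8), with 949 (20.3) and 1194 (33.8). F08H9.11 had pooled rank 1007 (52.7), with 783 (22.0) and 1179 (34). The lowest U1 peak, at T08G5.11, differed most between replicates of all 28 loci. Its pooled rank was 1298 (45.4), with rank 14030 (6.53) in replicate 1 and 765 (42.1) in replicate 2, and the replicate 1 region had its summit 308 bp downstream of the 5′ end.

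The 4 U1 loci without a peak carried the word pair as well, with 13 to 15 of its 15 letters. C27H5.11 had pooled rank 3039 (28.0), with 3747 (11.1) and 5114 (16.6). The others are the cluster T27E4.10, T27E4.11 and T27E4.12 (V 9086858 to 9091623). T27E4.12 had pooled rank 8609 (17.4), with no region in replicate 1 and rank 10618 (12.2) in replicate 2. In this cluster 38.3 to 76.7% of 31-base words were found once in the genome, against 76.4 to 89.5% at the U1 loci with a peak. The 76.7% of T27E4.12 lies within the range of the loci with a peak, and so does the 87.5% of C27H5.11. Whether reads from copies were lost in the T27E4 cluster was not tested.

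The U2 genes code for the RNA that pairs with the branch point. Y57G11C.35, in an intron of Y57G11C.5, ranked 83 (142) in the pooled list, 75 (53.0) in replicate 1 and 115 (86.0) in replicate 2. The other 3 U2 loci with a peak form a cluster at II 13829305 to 13852972. There F08G2.9 had pooled rank 875 (57.0), with 951 (20.2) and 1028 (36.0). F08G2.10 had pooled rank 910 (55.6), with 806 (21.7) and 1084 (35.2). F08G2.11 had pooled rank 1454 (42.9), with 1391 (17) and 1951 (26.1). Thus 1 U2 locus stood far above the rest of its kind in both replicates.

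A second U2 cluster on the same chromosome, at II 13942499 to 13951608, had no region in any list at its 3 loci W07G1.8, W07G1.9 and W07G1.24. Both clusters match the word pair in 11 letters at every locus. The share of unique 31-base words was 61.7 to 64.6% in the F08G2 cluster and 32.9 to 93.2% in the W07G1 cluster, with the highest value at W07G1.24, a shortened copy of 149 bases. F08G2.10 has the same RNA sequence as 6 other U2 loci, of which none had a peak. The U2 loci of highest rank without a peak were Y54G9A.8, with pooled rank 2017 (35.5), 1429 (16.7) and 3224 (20.3), and F11A5.14, with pooled rank 2600 (30.6), 1365 (17.1) and 3896 (18.6). None of the 9 U2 loci on chromosome I had a peak, and F15H9.5 and F15H9.6 among them had no unique 31-base word at all.

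The U4 genes code for the RNA that pairs with U6 RNA before activation. C52E4.8 ranked 102 (131) in the pooled list, 126 (44.8) in replicate 1 and 109 (86.7) in replicate 2. Its summit lay 56 bp upstream of its own 5′ end and 339 bp upstream of that of snr-4, which codes for an Sm protein and is transcribed away from it. K03B8.10 had pooled rank 1429 (43.4), with 1198 (18.2) and 1847 (26.8). T11F9.15, whose RNA sequence is the same as that of C52E4.8, had no peak and pooled rank 1990 (35.9), with 3384 (11.6) and 1943 (26.1). F10D2.13, in an intron of ugt-37, ranked 804 (21.7) in replicate 1 and had no region in replicate 2 or in the pooled list. T11F9.16 had no region in any list, although it matched the word pair in 14 letters and 84.4% of its 31-base words were unique.

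The U5 genes code for the RNA whose loop holds the exon ends. F32B5.9, in an intron of cpz-1 on the opposite strand, ranked 82 (144) in the pooled list, 93 (48.9) in replicate 1 and 83 (97) in replicate 2. F38E11.10 had pooled rank 141 (116), with 71 (53.4) and 287 (62.3). F42C5.12, in an intron of F42C5.9 on the opposite strand, had pooled rank 186 (108), with 186 (38.5) and 206 (70.2). These 3 were among the 8 snRNA loci in the top 200 pooled regions, beside 2 U1 loci and 1 locus each of U2, U4 and U6. The share of all nuclear genes in the top 200 was not computed.

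F38E11.11 has the same RNA sequence as F38E11.10, and here both copies had a peak, with pooled rank 318 (86.8) and replicate ranks of 300 (31.9) and 270 (63.4) at F38E11.11. C53D6.12 had pooled rank 432 (78.0), with 338 (30.5) and 541 (49.4). The 3 ZK897 loci lie in introns of unc-31, on its strand, at IV 12782066 to 12787259, and all had a peak. ZK897.4 had pooled rank 446 (76.7), with 298 (32.1) and 498 (51.0). ZK897.2 had pooled rank 473 (75.2), with 606 (24.5) and 425 (54), and ZK897.3 had pooled rank 584 (68.8), with 382 (29.0) and 622 (46.7). The gene unc-31 acts in the release of dense-core vesicles from neurons.

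The last U5 peak, at Y69A2AR.36, had pooled rank 657 (65.0), with 484 (26.6) and 567 (48.4). All 9 U5 loci with a peak ranked 657 or better in the pooled list, 606 or better in replicate 1 and 622 or better in replicate 2. Of the 2 U5 loci without a peak, F07C6.5 had pooled rank 1808 (38.0), with 809 (21.6) and 6073 (15.4), and shares its RNA sequence with ZK897.2. C53B4.9 had a region in replicate 1 alone, at rank 17076 (5.94), and matched the word pair in 13 letters. Of its 31-base words 93.6% were unique, the highest share of the U5 loci.

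The U6 genes code for the RNA of the catalytic core. W05B2.8, in an intron of the dynein heavy chain gene dhc-4, ranked 103 (131) in the pooled list, 96 (48.3) in replicate 1 and 128 (82.7) in replicate 2. F54D8.7 had pooled rank 488 (74.4), with 1087 (18.9) and 393 (55.3). Y9C9A.111 had pooled rank 676 (64.0), with 491 (26.5) and 887 (38.8). The next were T08B6.62, with pooled rank 2029 (35.4), 1030 (19.5) and 6501 (15), and C28A5.7, with pooled rank 2554 (30.9), 2513 (12.9) and 4524 (17.5). W05B2.8 and Y9C9A.111 are 2 of 14 loci with the same RNA sequence, of which 7 had no region in any list.

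The U6 loci differed among themselves in the bases upstream. Of the 22 U6 loci, 9 carried the word pair, which is 12 or more of its 15 letters from 90 to 20 bases before the 5′ end on the RNA strand, and 17 had a TATA word from 45 to 11 bases before it. The 8 loci with both had 19 to 21 bases between the pair and the TATA word, and 3 of these 8 had an IDR peak and 7 a pooled region. Of the 13 loci without the pair, 0 had an IDR peak, 2 had a pooled region and 8 had no region in any list. Without the pair does not mean without a similar stretch. At the 9 of these 13 with a TATA word the best match had 9 to 11 letters. It began at the same distance from the 5′ end as at the loci with the pair. The cut at 12 letters was not varied. The 2 groups differ in repeat content too, with a median of 83.7% unique 31-base words (61.2 to 86.5%) at the 9 loci with the pair and 67.7% (50.3 to 98.8%) at the 13 without it. Its part in the difference was not tested.

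Another 3 U6 loci without a peak are shown to place these differences. T08B6.62 has the same RNA sequence as F54D8.7 and both elements, and its region missed the IDR list. K09B11.13 has a TATA word and only 10 letters of the pair, and stands for 6 loci in introns of mam-3 (IV 13435785 to 13443846) of which none had a region in any list, with 50.3 to 61.9% of 31-base words unique. F32D1.12 has neither element and 87.6% unique words, and had a region in replicate 2 alone, at rank 25299 (7.69). Capitals mark the best match to the pair where it had 10 or more letters, and the TATA word.
T08B6.62 (U6, chrIV:4885630-4885739, minus strand): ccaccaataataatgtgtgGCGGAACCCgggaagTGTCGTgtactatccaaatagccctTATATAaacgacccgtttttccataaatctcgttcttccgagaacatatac
K09B11.13 (U6, chrIV:13440634-13440743, minus strand): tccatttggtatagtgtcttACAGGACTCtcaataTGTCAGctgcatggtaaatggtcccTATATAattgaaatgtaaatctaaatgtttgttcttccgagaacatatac
F32D1.12 (U6, chrV:4354350-4354459, plus strand): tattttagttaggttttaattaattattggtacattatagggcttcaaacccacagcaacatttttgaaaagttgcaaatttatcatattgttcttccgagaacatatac

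Over all kinds the pair was found at 12 of 12 U1, 5 of 5 U4, 11 of 11 U5, 9 of 22 U6, 0 of 19 U2 and 2 of 20 unassigned loci. It was found at 100 of 46797 other nuclear genes (0.214%). Of other short RNA classes, 10 of 18 SL2 RNA genes and 10 of 12 smY genes had it, and 37 of 344 snoRNA genes (10.8%), 0 of 612 tRNA genes and 0 of 12 SL1 RNA genes had it. At the U2 loci the exact second word TGTCGG was present at 15 of 19 and a word CACGCGC at 17 of 19, both on the RNA strand. Both were singled out after the U2 sequences had been seen, so their shares at U2 loci are in part built in. On either strand of the same window the first was present at 1.40% and the other at 0.222% of other genes. TGTCGG was present at 7 of 12 U1, 3 of 5 U4, 3 of 11 U5 and 1 of 22 U6 loci, and CACGCGC at 0 of these 50. A match is a description of letters and not evidence of binding.

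An IDR peak was found at 23 of 39 snRNA loci with the word pair and at 5 of 50 without it, against 5.17% of all annotated nuclear genes. The tRNA genes had the pair at 0 of 612 and a peak at 349 of 612, so a peak does not require the pair. Every U1, U4 and U5 locus has the pair and no U2 locus does, so that U6 is the only assigned kind with loci of both sorts. There 3 of 9 loci with the pair and 0 of 13 without it had a peak, and the median match was 14.0 letters at loci with a peak and 10 at loci without one. Within U1, loci with a peak matched a median of 13.5 letters (13 to 15) and loci without one a median of 13.0 (13 to 15). Within U5 the median was 13.0 letters at loci with a peak and 14.0 at loci without one, and within U2 it was 11 with and 10 without. In U1, U5 and U2 the ranges of the loci with and without a peak overlap.

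The TATA word was found at U6 loci and not at those of the other assigned kinds. It began 29 to 31 bases before the 5′ end at 17 of 22 U6 loci and was found at 0 of the 47 U1, U2, U4 and U5 loci and at 6.97% of other nuclear genes. A run of TTTT, the usual end signal of RNA polymerase III, began within 20 bp after the annotated end at 17 of 22 U6 loci. It was found at 3 of the 47 loci of the other kinds, at 602 of 612 tRNA genes (98.4%) and at 35.7% of other nuclear genes, so it is common outside genes of that polymerase.

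**Figure D3:**
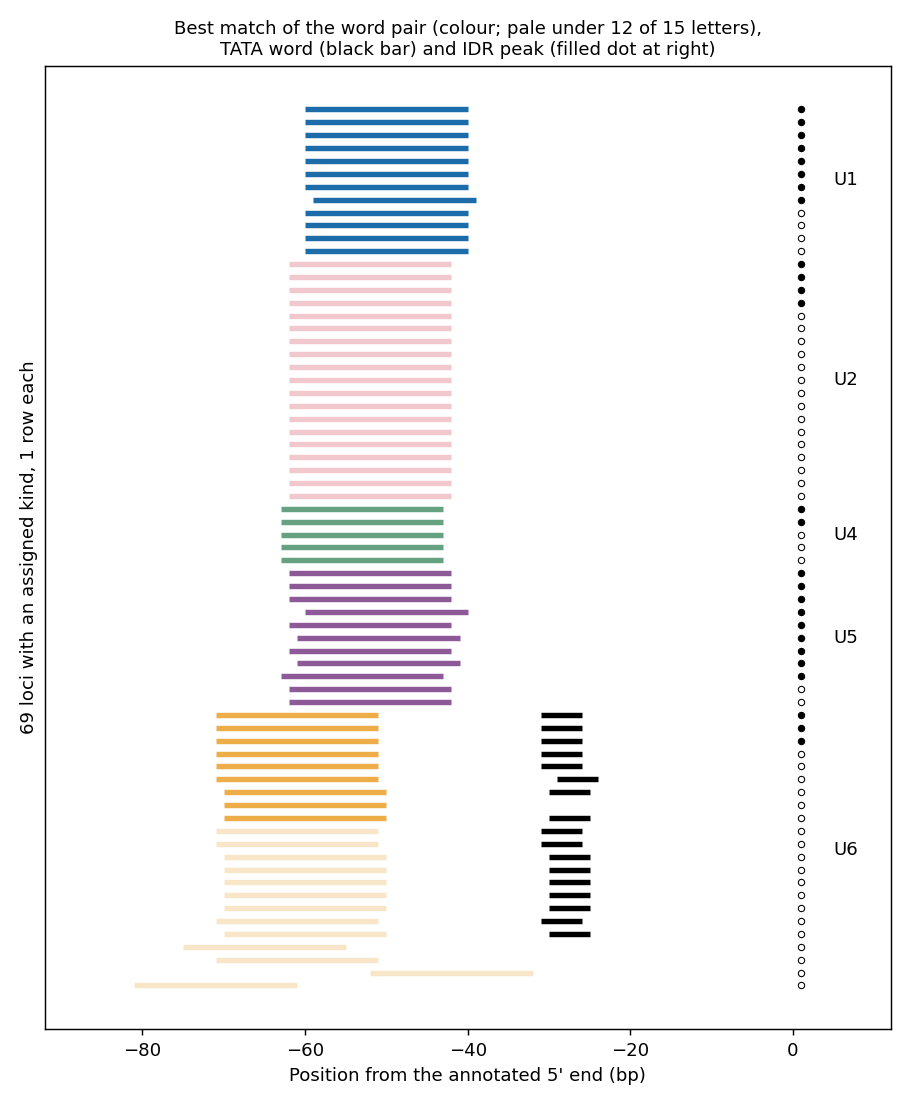
Position of the best match to the word pair (coloured bars, pale where it matched fewer than 12 of 15 letters) and of the TATA word (black bars) from the annotated 5′ end in bp (x axis) at the 69 loci with an assigned kind, 1 row each. Filled dots mark an IDR peak; the pair begins 59 to 63 bp upstream in U1, U4 and U5 and 70 or 71 bp upstream in the 9 U6 loci that have it.

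Summits lay close to the 5′ ends. Over the 28 loci with a peak the median summit was 23 bp upstream of the annotated 5′ end, and 25 of 28 lay between 100 bp upstream and 50 bp downstream of it. In the single replicates the median positions were -17.5 and -26 bp. By kind the IDR medians were -27 bp for U6, -26 bp for U5, -20.5 bp for U1, -19.5 bp for U4 and 39.5 bp for U2. The 2 replicates placed the summit of a locus a median of 45 bp apart, within 30 bp at 13 loci and up to 286 bp apart, so the medians of U1, U4, U5 and U6 differ by less than that spread. The U4 median rests on 2 loci, the U6 median on 3 and the U2 median on 4. Among the U2 loci Y57G11C.35 had its summit 30 bp upstream while the F08G2 loci had theirs 37 to 82 bp inside the gene.

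**Figure D4:**
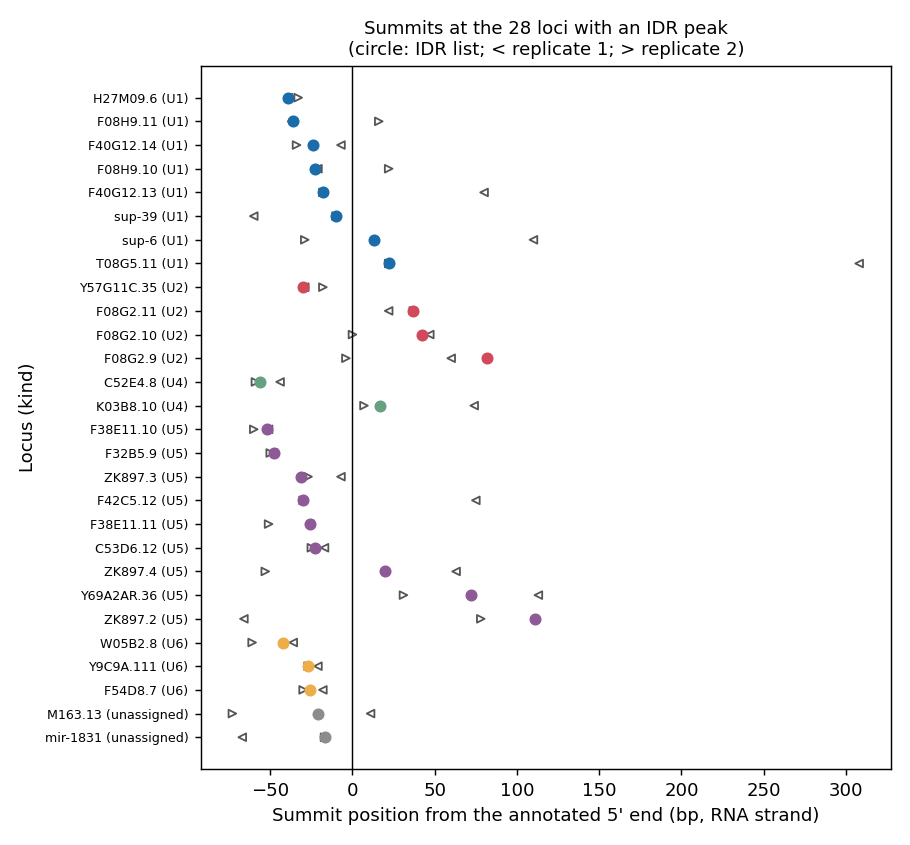
Summit position relative to the annotated 5′ end (x axis, bp on the RNA strand, negative is upstream) at the 28 loci with an IDR peak (y axis, kind in brackets). Circles are the IDR list and open triangles the replicates; 19 of the 28 circles lie upstream, and the replicate 1 summit of T08G5.11 lies 308 bp downstream.

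The narrower peaks were among those of higher rank. Of the 28 loci, 19 had a region of 276 bp, the width of nearly all regions of the pooled list, with ranks of 186 to 1568. The other 9 had regions of 83 to 151 bp and ranks of 65 to 483. Other annotated features lay at or near many of these summits. At 17 of the 28 loci an entry of biotype ncRNA held the summit or lay within 250 bp of it. At 8 the 5′ end of a protein-coding gene lay within 500 bp of the summit. No tRNA or snoRNA gene lay within 250 bp of a summit. The piRNA gene 21ur-14704 held or lay within 250 bp of the summit shared by sup-39 and mir-1831. The same shares over all IDR peaks were not computed.

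At the 28 loci the better of the 2 replicate ranks was a median of 1.39 times ahead of the other, and 23 loci were within 2 times. The largest ratio was 18.3, at T08G5.11. Replicate 1 gave the better rank at 20 loci and replicate 2 at 8. The members nearest the threshold were, inside it, T08G5.11 (rank 1298), K03B8.10 (1429), F08G2.11 (1454) and M163.13 (1568, signal 41.3). Outside it they were F07C6.5 (1808, signal 38.0), T11F9.15 (1990), Y54G9A.8 (2017) and T08B6.62 (2029). All of these but T11F9.15, which was in neither, were in the top 1676 of only 1 replicate.

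**Figure D5:**
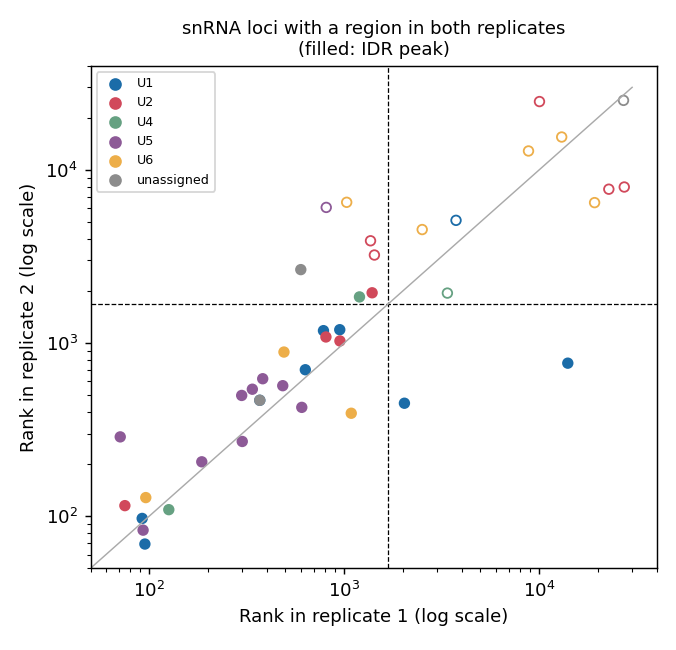
Rank in replicate 2 (y axis, log scale) against rank in replicate 1 (x axis, log scale) for the 42 snRNA loci with a region in both replicates, coloured by kind and filled where they had an IDR peak. Dashed lines mark rank 1676 and the grey line equal ranks; 23 loci lie in the lower left box, and T08G5.11 lies farthest from the line among the filled points.

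Loci in introns had a peak at 15 of 42 (35.7%) and loci between protein-coding genes at 11 of 35 (31.4%). Within introns it was 13 of 28 on the strand of the host gene and 2 of 14 on the opposite strand, and both of these were U5 loci. Most of the 14 were U6 loci, the assigned kind with the lowest share of peaks, so strand and kind are mixed in this split. The 13 count the peak shared by sup-39 and mir-1831 for both loci. Loci that overlap an exon had none, at 0 of 8, of which 6 are unassigned loci in cyp-34A genes. Identical copies are found among U2, U4, U5 and U6 loci and not among U1 or unassigned loci, and the 89 loci hold 64 distinct RNA sequences. Of 48 loci with at least 80% of 31-base words unique, 19 had a peak (39.6%), and of 41 loci under that share 9 had one (22.0%).

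The unassigned loci had few regions. Apart from mir-1831, the only IDR peak was at M163.13, at pooled rank 1568 (41.3), with 599 (24.6) in replicate 1 and 2655 (22.3) in replicate 2. Of the loci without a peak, T27E4.22 had pooled rank 8609, and it overlaps nearly all of T27E4.12 and shares its region. B0213.24 had pooled rank 16785 (12.8), with 27093 (4.54) and 25217 (7.70).

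Other short RNA classes give the setting. By the same rule an IDR peak was found at 14 of 18 SL2 RNA genes (77.8%, 52.4 to 93.6%), 349 of 612 tRNA genes (57.0%, 53.0 to 61.0%), 6 of 12 smY genes (50%, 21.1 to 78.9%), 86 of 344 snoRNA genes (25%, 20.5 to 29.9%) and 0 of 12 SL1 RNA genes (0 to 26.5%). Other nuclear genes of up to 250 bp, without piRNA genes, had one at 857 of 9047 (9.47%). Repeat content was not computed for these classes, and their intervals treat copies as independent. The 0 of 12 therefore does not show that SL1 RNA genes are unbound. The U5 and U1 intervals overlap that of SL2 RNA genes. Over all 22 U6 loci the U6 interval overlaps that of snoRNA genes and lies below that of tRNA genes, the other RNA polymerase III class here. At the 10 U6 loci with at least 80% unique 31-base words the interval (6.67 to 65.2%) overlaps that of tRNA genes.

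Genes for proteins of the spliceosomal particles were set beside the RNA genes. Of 35 listed genes 34 were found in the annotation, and 11 had an IDR peak within 500 bp of a 5′ end, against 6.31% of 19973 protein-coding genes. With 250 bp in place of 500 bp the count was 5, and with the 838 IDR peaks of highest signal it was 2 (snr-3 and snr-4). The share over all protein-coding genes was not computed at these settings, so these counts have nothing to be set against. Of the 11 genes with a peak within 500 bp, 8 were among the 14 Sm and LSm genes found, whose products form the rings around the snRNAs. They were snr-1, snr-2, snr-3, snr-4, snr-6, lsm-1, lsm-6 and lsm-7. The highest after snr-4, whose peak is the one at the U4 gene C52E4.8, was snr-3, at pooled rank 770 (59.9), with 626 (24.2) in replicate 1 and 1035 (35.9) in replicate 2. The others ranked 1073 (snr-2), 1248 (lsm-6), 1279 (lsm-7), 1303 (snr-1), 1507 (lsm-1) and 1577 (snr-6) in the pooled list.

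In the other groups uaf-2, which codes for a splicing factor of the 3′ splice site, ranked 1606 (40.8), with 3154 (11.9) and 1074 (35.3). The U5 protein gene prp-8, whose product lies at the centre of the spliceosome, ranked 1628 (40.5), with 8972 (7.93) and 1208 (33.5). The assembly factor gene smn-1 ranked 1510 (42.1), with 970 (20.1) and 1826 (27.0). All but snr-3 and snr-4 therefore ranked lower than 838, the midpoint of the IDR list, and none but snr-4 had an snRNA gene at its summit. The smn-1 peak had the microRNA gene mir-4932 at its summit.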

How the data were processed

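Deposited peak lists of 2 biological replicates were used. Per the text notes deposited beside the lists, regions of each replicate and of the pooled replicates were called by the authors against 1 control, which both replicates share, and IDR peaks were taken from these lists. How reads were aligned and peaks called, the IDR threshold and the read counts: not given in the sources used here. Regions were ranked within each list by the authors' signal value per region (column 7, no read unit), and the deposited −log10 q-value was not used for ranking. Only the ce11 lists were analysed, with 1-based positions.

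Genes came from Ensembl release 115. Ensembl gives 64 names to the 89 loci, so each locus carries its RefSeq name, matched by gene ID at 89 of 89. The share of unique 31-base words was computed over each locus with 250 bp to each side. Scripts were run in Python 3.11.15 with numpy 2.4.6, scipy 1.17.1 and matplotlib 3.10.9. The finding of summits at genes was checked on simulated summits for part of the loci. This was not a strict check of the choice between several regions. No test was run, since there is 1 group. Depth per sample is unknown, and the number of loci sets the precision. Percentages of loci have Clopper-Pearson 95% intervals. The members and lists were chosen with earlier results of these data known. Every member with an IDR peak is named, and of the others the 2 of highest pooled rank per kind, with further loci named after their values were seen. The printed loci F32D1.12, K09B11.13 and T08B6.62 were chosen in this way. Alternatives were the window, the overlap rule, a higher threshold, each replicate alone, repeat content, copies and another assignment of kinds.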

Additional observations from a re-analysis of the deposited data

How the results depend on the processing

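Of 76 alternative values, 65 stayed within 1.5 times the count reported (or within 1 replicate SD, 7.07 bp, of the median summit). The limit was applied to counts and not to shares, so a set with fewer loci can pass or fail by its size. The SD comes from the 2 single-replicate medians, which are themselves among the values judged by it. The 65 of 76 is therefore a description and not a measure of robustness. With the 838 IDR peaks of highest signal, peaks remained at 5 U1, 1 U2, 1 U4 and 1 unassigned loci and at 2 spliceosomal protein genes, and with 0.5 times the window at 5 protein genes. Restricted to loci with at least 80% unique 31-base words, 4 of 5 U1 and 1 of 4 U2 loci had a peak, and the U6 count was 3 of 10 in place of 3 of 22. With 1 locus for each distinct sequence it was 2 of 7. With the regions of 1 replicate alone the counts ranged from 25 to 31 loci in all, 6 to 8 for U1, 3 to 6 for U2, 1 to 3 for U4, 9 to 10 for U5, 3 to 4 for U6 and 1 to 2 for unassigned loci, the median summit from -27 to -17 bp and the protein genes from 8 to 9. The lowest U4 and unassigned counts were those without replicate 1. Kinds assigned by shared 12-base words, an alternative chosen after seeing the data, left 1 unassigned locus with a peak. A fit to RefSeq names for the kinds was not run, because those names give no kind. The cause of these differences was not tested, apart from those that follow from fewer loci or peaks. No paired analysis was possible because there is 1 group. Peak lists without counts limit any statement on loci without a region: such a locus is one not listed, and not one shown to be unbound.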

Other observations

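The unassigned locus M163.13, an 80-base entry on X, is shown because the bases before it hold a TATA word and a stretch also found before some U6 loci. The TATA word began 30 bases before the 5′ end, as in the U6 loci, and TTTT followed the annotated end. The longest run of letters shared with the 100 bases upstream of U6 loci was 13, and with those of U1, U2, U4 and U5 loci 8, 10, 8 and 7. Only 3 of 22 U6 loci reached 13, and 1 of these runs began at the TATA word. At F54D8.7 and R07E5.16 the run began 57 bases before the 5′ end, and 56 bases before that of M163.13. At F54D8.7 the run takes in TGTCTG, the second word of its best match to the pair. The median run was 7 at U6 and U1 loci and 6 at U2, U4 and U5 loci. M163.13 matched the word pair in 7 of 15 letters, and its RNA shared no 12-base word with a locus of any kind. Capitals mark the TATA word. Whether M163.13 is transcribed was not tested.
M163.13 (unassigned, chrX:14476777-14476886, plus strand): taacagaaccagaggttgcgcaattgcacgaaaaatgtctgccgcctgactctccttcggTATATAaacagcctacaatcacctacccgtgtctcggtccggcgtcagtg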
